A study of Mus musculus with 14 samples.

Results

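Loss of KLF1 alone was compared with loss of KLF1 and KLF2 together in primitive erythroid precursors, the earliest red cell lineage of the mouse, at embryonic day 9.5. The comparison rests on 6 of the 14 arrays of the series, chosen by their genotype labels: 3 labelled KLF1-/- (titles numbered 5, 6 and 8) and 3 labelled KLF1-/- KLF2-/- (titles 13 to 15). The KLF1-/- KLF2-/- group lacks both factors and the KLF1-/- group keeps KLF2, so both groups lack KLF1. The other 8 arrays are wild type, 4 titled 1 to 4 and 4 titled 9 to 12. All samples carry the strain label FVB/N, and the design text names dams heterozygous for KLF1 or for both genes. Each sample was captured by laser from sections of frozen yolk sacs, 2 to 4 pooled sacs from 2 litters, so an array reports a pool and not 1 embryo. The labels do not say whether wild-type embryos were littermates of mutants or how the alleles were made.

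Both factors belong to the Krüppel-like family of zinc finger proteins and bind CACCC-type and related GC-rich DNA. KLF1 is largely restricted to red cells, where it activates globin, membrane and heme genes. KLF2 is best known from endothelium, where blood flow induces it, and from lymphocytes, and it also acts on embryonic globin genes. Both genes lie on the same mouse chromosome. The comparison asks what the loss of KLF2 adds once KLF1 is gone.

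The title numbers form 2 runs, and each mutant group lies in its own run, so genotype and title run cannot be told apart in the direct difference (KLF1-/- KLF2-/- minus KLF1-/-). The labels do not say whether the runs are batches. A second value, here called the run-referenced difference, takes each mutant group relative to the 4 wild-type arrays of its own run before comparing them. All values are log2 expression from the array, so a difference of 1 is a doubling, and a gene was called at a Benjamini-Hochberg adjusted p under 0.05 in limma over 12393 genes. In the direct difference 1 gene was called, 0.00807% of genes, and it was lower in KLF1-/- KLF2-/-. In the run-referenced difference 0 were called (smallest adjusted p = 1.0, 197 genes, or 1.59%, at an unadjusted p under 0.05).

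The 95% interval of the direct difference lay wholly between −1 and 1 for 11327 genes (91.4%), with a median half-width of 0.45. For the run-referenced difference this held for 8977 genes (72.4%), with a median half-width of 0.59. A change of 2-fold or more was therefore outside the interval for most genes, while smaller changes were often inside it. Point estimates beyond 1 were rare, with 6 genes above 1 and 3 below −1 in the direct difference. In the run-referenced difference 36 genes lay above 1 and 21 below −1. By chance alone, 620 of 12393 genes would have an unadjusted p under 0.05, more than the 197 of the run-referenced difference. In the direct difference 74 genes did (0.597%), 48 higher (0.387%) and 26 lower (0.21%). Between the wild-type arrays of the runs 1024 did (8.26%), with 0 called (smallest adjusted p = 0.206), but 101 were called without wild-type replicate 4 and 5 after quantile normalization. The direct difference was above 0 for 50.1% of genes and the run-referenced one for 55.2%. The arrays of the mutant genotypes did not overlap for 403 genes (3.25%). Measures of array quality overlapped between the mutant groups. The interquartile range of log2 values was 2.45 to 3.12 in KLF1-/- and 2.39 to 2.84 in KLF1-/- KLF2-/-. In the same order, 3′ minus 5′ signal was 4.34 to 5.06 and 3.94 to 5.20 for Gapdh, and 4.74 to 5.07 and 4.67 to 5.25 for actin. The actin values of KLF1-/- KLF2-/- lay above those of its own-run wild type (3.74 to 4.55). Those of KLF1-/- lay within the range of its own-run wild type (4.13 to 5.52). The part of this imbalance in the run-referenced difference was not tested. Erythroid genes were bright in both mutant groups, with the band 3 gene Slc4a1 at 11.33 ± 0.30 and 11.37 ± 0.69 (SD, n = 3 each). The transcription factor gene Gata1 was at 11.09 and 11.13. Markers of other cells were present too, since the platelet chemokine gene Pf4 averaged 11.50 and 11.96. In captured tissue, fewer cells of a type and less RNA per cell cannot be told apart.

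Promoter sequences are shown for genes from the group described next, whose direct and run-referenced differences go the same way: Esm1 and Hprt, those of the group with the largest direct differences that have an entry in the RefSeq promoter table, and Itga4, the cell adhesion gene among them. Each is the 250 bases before the gene's start from RefSeq, assembly GRCm38.p6, 5′ to 3′, with matches to CCNCNCCC, a form of the KLF binding motif, on either strand in capitals (overlapping matches are merged).
Esm1 (chr13:113209409-113209658, plus strand): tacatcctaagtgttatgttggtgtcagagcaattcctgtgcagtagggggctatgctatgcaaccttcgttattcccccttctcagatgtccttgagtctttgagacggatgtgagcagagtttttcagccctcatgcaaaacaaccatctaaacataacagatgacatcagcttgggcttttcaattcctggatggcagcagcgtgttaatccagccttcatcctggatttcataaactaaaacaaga
Hprt (chrX:52987828-52988077, plus strand): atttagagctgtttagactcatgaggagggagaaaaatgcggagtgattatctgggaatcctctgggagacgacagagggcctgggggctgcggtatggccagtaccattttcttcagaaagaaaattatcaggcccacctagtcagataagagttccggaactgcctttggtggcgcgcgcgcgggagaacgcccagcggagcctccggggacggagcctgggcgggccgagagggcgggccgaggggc
Itga4 (chr2:79255176-79255425, plus strand): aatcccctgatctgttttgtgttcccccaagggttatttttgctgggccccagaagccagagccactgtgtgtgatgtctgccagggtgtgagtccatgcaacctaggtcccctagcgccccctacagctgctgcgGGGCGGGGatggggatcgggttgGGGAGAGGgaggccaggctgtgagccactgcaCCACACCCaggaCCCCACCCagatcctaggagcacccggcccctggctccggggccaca
Esm1 and Hprt hold 0 matches in this window and Itga4 holds 4. Of 12566 promoters of genes on the array 60.9% hold the motif, and of 18 promoters of 13 genes of the 18-gene group 9 do (50%). Tcim, Fabp4, Cpe, Cd248 and Kcna1 have no entry. A match is a string of letters, not a measured binding site.

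Tcim, which codes for a small protein linked to Wnt and beta-catenin signalling, was the called gene. Its log2 expression was 8.06, 8.91 and 8.56 in KLF1-/- and 6.64, 6.48 and 7.02 in KLF1-/- KLF2-/-. Wild-type arrays ran from 7.80 through a median of 8.20 to 8.46, so the KLF1-/- KLF2-/- arrays lay below all 11 others while the KLF1-/- arrays overlapped wild type. The direct difference was −1.80 (SE 0.247, 95% interval −2.32 to −1.27, adjusted p = 0.0418 in limma), a ratio of 0.288. The run-referenced difference was −1.61 (SE 0.328, interval −2.31 to −0.90, unadjusted p = 0.000261, adjusted p = 1.0). Against its own-run wild type Tcim was −1.33 in KLF1-/- KLF2-/- (adjusted p = 0.0613) and 0.28 in KLF1-/-. The call held without KLF1-/- replicate 5 (adjusted p = 0.0221) and ended without any other array: 0.333 and 0.357 without KLF1-/- replicates 6 and 8, and 0.384, 0.426 and 0.0666 without KLF1-/- KLF2-/- replicates 13, 14 and 15. Without wild-type replicates 1 to 4 it was 0.082, 0.0563, 0.0739 and 0.056, and without 9 to 12 it was 0.0547, 0.0575, 0.0583 and 0.0824. With the 6 mutant arrays alone limma called 0 genes, with 71 at an unadjusted p under 0.05. The call also ended when the wild-type arrays were not pooled over the runs (4 means, genotype by title run; smallest adjusted p = 0.0647), with the most variable probe set per gene (0.0538) and with the Gapdh covariate (0.077).

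**Figure D1:**
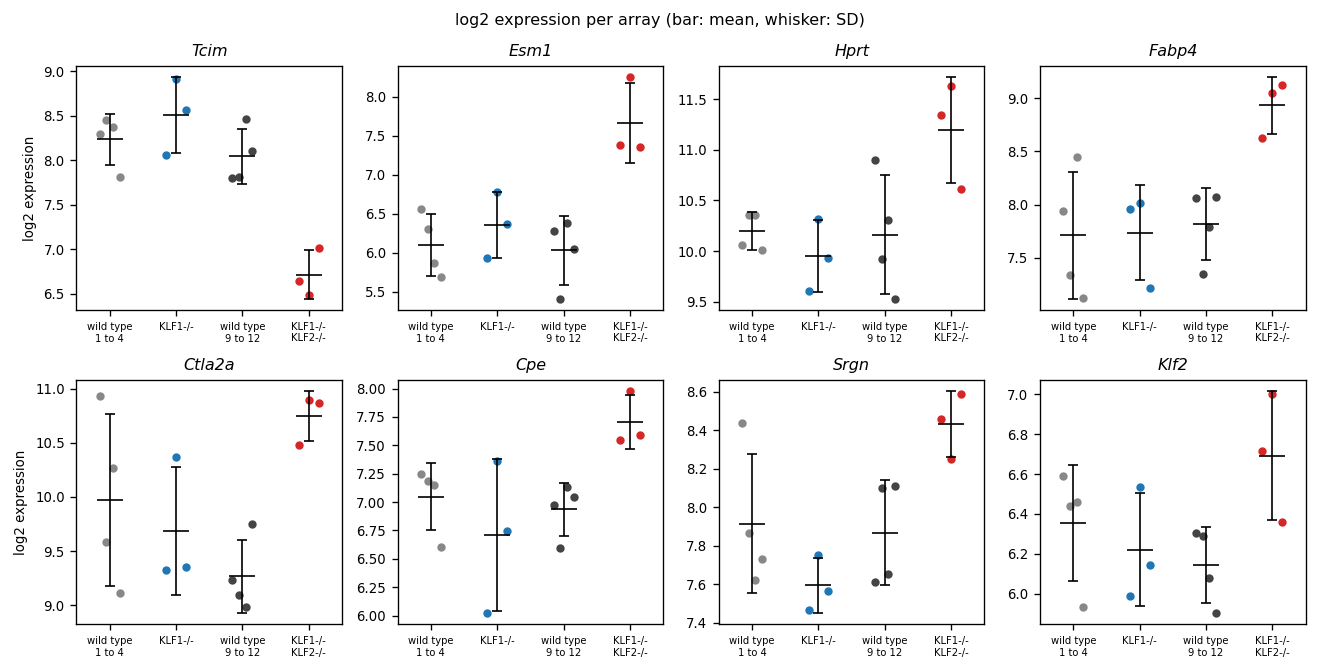
Log2 expression of 8 genes in each array, by genotype and title run (points are arrays, bars are means, whiskers are SD; each panel has its own axis range). For Tcim the 3 KLF1-/- KLF2-/- arrays sit between 6.48 and 7.02, below all others, and for Esm1, Fabp4 and Cpe they sit above all others.

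Tcim belongs to a small group with the same direction in both measures, whose other members did not pass the test. It holds 18 genes (0.145% of all), 13 higher (0.105%) and 5 lower (0.0403%) in KLF1-/- KLF2-/-, defined by an unadjusted p under 0.05 in both differences and by arrays of the mutant genotypes that do not overlap. After Tcim, the next adjusted p in the direct difference was 0.9999, so the values that follow describe these arrays. The KLF1-/- KLF2-/- arrays lay above the other 11 for 15 genes (0.121%) and below them for 10 (0.0807%). This is not independent of the group, since it includes not overlapping KLF1-/-. Tcim, Esm1, Fabp4, Cpe and Col13a1 meet both descriptions. Esm1, the endothelial proteoglycan endocan, was 5.94, 6.78 and 6.36 in KLF1-/- and 7.38, 8.26 and 7.35 in KLF1-/- KLF2-/-. Wild-type arrays ran from 5.41 to 6.56, so all KLF1-/- KLF2-/- arrays were above the other 11. The direct Esm1 difference was 1.30 (interval 0.63 to 1.97) and the run-referenced one 1.38 (0.45 to 2.30). Fabp4, a fatty acid binding protein of fat cells, macrophages and capillary endothelium, was 7.96, 8.02 and 7.22 in KLF1-/- and 8.63, 9.05 and 9.12 in KLF1-/- KLF2-/-. It also lay above all other arrays, and the differences were 1.20 (0.52 to 1.88) and 1.09 (0.16 to 2.02), with dimmer probe sets at 0.61, 0.05 and 0.17 in the direct difference.

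Ctla2a, a cysteine protease inhibitor, was 9.33, 10.37 and 9.36 in KLF1-/- and 10.48, 10.90 and 10.86 in KLF1-/- KLF2-/-. Wild-type replicate 1 reached 10.93, so the double mutants did not lie outside the wild-type range. The direct difference was 1.06 and the run-referenced one 1.77 (0.63 to 2.91). Srgn, the granule proteoglycan serglycin of blood and endothelial cells, was 7.47, 7.75 and 7.57 in KLF1-/- and 8.46, 8.25 and 8.59 in KLF1-/- KLF2-/-, with differences of 0.84 (0.40 to 1.28) and 0.88 (0.28 to 1.49). Cpe, the carboxypeptidase that trims peptide hormones, was 6.02, 7.36 and 6.75 in KLF1-/- and 7.55, 7.98 and 7.59 in KLF1-/- KLF2-/-. Its differences were 1.00 and 1.11, but a dimmer and more variable probe set gave −0.05 in the direct difference. Itga4, the alpha chain of an integrin that binds fibronectin and VCAM, differed by 0.55 and 0.70. Its dimmer probe sets gave 0.05 and 0.10 in the direct difference and 0.05 and 0.15 run-referenced. Sfrp2, a secreted Wnt antagonist, differed by 0.45 and 0.65. The remaining higher members, Kcna1, Lypd1, Cd248, Slc32a1 and Tmem150b, had direct differences from 0.29 to 0.35 and run-referenced ones from 0.37 to 0.50. Endothelial markers as a list had 13 of 22 members above 0 in the direct difference and 17 run-referenced, with Esm1 among them. The junction genes Pecam1 (−0.11 directly, 0.08 run-referenced), Cdh5 (−0.10 and 0.34) and Cldn5 (0.25 and 0.53), and the VEGF receptor genes Kdr (−0.21 and −0.07) and Flt4 (0.27 and 0.12), lay on both sides of 0.

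Hprt, the X-linked purine salvage enzyme that is also used as a selection marker in mouse embryonic stem cells, belonged to the same group. It was 9.61, 10.32 and 9.93 in KLF1-/- and 11.35, 11.63 and 10.61 in KLF1-/- KLF2-/-. Wild-type arrays ran from 9.53 to 10.90, and 2 of the KLF1-/- KLF2-/- arrays lay above all of them. The differences were 1.24 (0.57 to 1.91) and 1.28 (0.36 to 2.20). The labels do not describe the targeted Klf2 allele, so whether the Hprt signal read the endogenous gene alone cannot be told here. X-linked Xist, which marks female cells, was 10.19, 9.81 and 8.75 in KLF1-/- and 9.27, 10.55 and 10.15 in KLF1-/- KLF2-/-. The Y-linked gene Eif2s3y was 6.87, 8.22 and 9.12 against 9.07, 4.23 and 6.60. Its direct difference of −1.44 was among the largest, with an interval of −4.52 to 1.65, so the pools differed widely in Y-linked signal within each genotype. The labels do not give the sex of the pooled embryos, and its part in the Hprt values was not tested.

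The 4 lower genes of the group besides Tcim had direct differences between −0.40 and −0.36. Col13a1, a membrane-spanning collagen, was 6.79, 6.96 and 6.74 in KLF1-/- and 6.51, 6.38 and 6.41 in KLF1-/- KLF2-/-, below all other arrays, with both differences at −0.40. Mre11a, a nuclease of DNA break repair, differed by −0.39 and −0.48, the amino acid transporter gene Slc7a6 by −0.39 and −0.54, and the corepressor subunit gene Gps2 by −0.36 and −0.44. For the last 3 the KLF1-/- mean lay above own-run wild type, by 0.25, 0.45 and 0.33. In KLF1-/- KLF2-/- they lay 0.22, 0.10 and 0.11 below it.

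**Figure D2:**
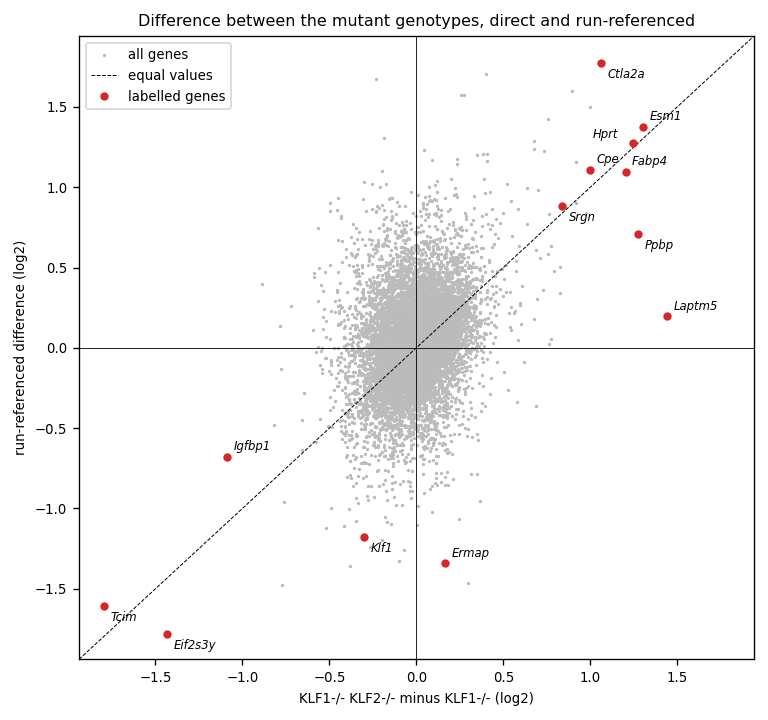
Direct difference between the mutant genotypes (horizontal axis, log2) against the run-referenced difference (vertical axis, log2), 1 point per gene for 12393 genes. Tcim at −1.80 and −1.61 and Esm1 at 1.30 and 1.38 lie near the line of equal values, while Laptm5 (1.44 and 0.20) and Ermap (0.16 and −1.34) lie far from it.

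Some of the largest direct differences were smaller, or of the other sign, when each group was set against its own wild type. Laptm5, a lysosomal membrane protein of blood cells, had the highest direct value. It was 7.02, 8.56 and 8.49 in KLF1-/- and 9.27, 9.73 and 9.39 in KLF1-/- KLF2-/-, a difference of 1.44, with dimmer probe sets at −0.09 and −0.01. Wild-type arrays 9 to 12 averaged 8.67 and arrays 1 to 4 averaged 7.42, and the run-referenced difference was 0.20 (SE 0.555). Ppbp, a platelet chemokine, differed by 1.28 directly and 0.71 run-referenced, and KLF1-/- replicate 5 at 7.46 overlapped KLF1-/- KLF2-/- replicate 15 at 7.44. Igfbp1, an insulin-like growth factor binding protein, differed by −1.09 and −0.68, with KLF1-/- replicate 6 at 8.92 and the other 5 mutant arrays between 6.28 and 7.52. Snhg6, a small nucleolar RNA host gene, turned from −0.89 to 0.40, and the kinase gene Sgk1 went from −0.82 to −0.48. Without KLF1-/- replicate 6 the Sgk1 differences were −0.36 and −0.02 and those of Igfbp1 −0.58 and −0.17.

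Klf2 signal was not lower in the arrays labelled as lacking it. It was 5.99, 6.53 and 6.14 in KLF1-/- and 6.72, 7.0 and 6.36 in KLF1-/- KLF2-/-, with a direct difference of 0.47 (SE 0.216) and a run-referenced one of 0.68 (0.07 to 1.29), neither called. The groups overlap, and with 1 probe set whose place relative to the deleted part is unknown here, Klf2 does not check the label. Klf1 was 9.53, 9.79 and 9.03 in KLF1-/- and 9.29, 9.59 and 8.56 in KLF1-/- KLF2-/-, which overlap. The direct Klf1 difference was −0.30 (−1.20 to 0.60), but the run-referenced one was −1.18 (−2.14 to −0.22), and wild type averaged 10.23 in arrays 1 to 4 and 11.11 in 9 to 12. Myc, the gene of the growth regulator named in the series title, was 6.72, 7.37 and 6.57 in KLF1-/- and 6.32, 6.81 and 6.26 in KLF1-/- KLF2-/-. The Myc differences were −0.43 (−1.04 to 0.18) and −0.45 (−1.29 to 0.38), so the arrays of the genotypes overlap and neither interval leaves out 0.

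Of the genes that neighbour Klf2 on the chromosome, the 10 measured on each side had direct differences from −0.39 to 0.19, with a median of 0.04 against 0.0004 over all genes. The most different was B3gnt3, a glycosyltransferase, at −0.39 (unadjusted p = 0.174). In the run-referenced difference the corepressor scaffold gene Sin3b stood at 0.75 (unadjusted p = 0.0475). The 20 neighbours of Klf1 had direct differences from −0.32 to 0.20. In both sets 0 genes were called, against 0.00807% of all genes in the direct difference and 0 run-referenced.

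Genes that fell without KLF1 were not called between the mutant genotypes. Against own-run wild type, 3 genes were called in KLF1-/- (0.0242%) and 7 in KLF1-/- KLF2-/- (0.0565%), all lower. Asb17, an ankyrin repeat protein, was 4.79, 4.50 and 5.02 in KLF1-/- and 4.90, 4.70 and 5.20 in KLF1-/- KLF2-/-, with a direct difference of 0.16 (−0.57 to 0.90). Kcnn4, the calcium-activated potassium channel of red cells, was 8.76, 7.91 and 8.42 against 8.39, 8.57 and 8.43, a difference of 0.10 (−0.52 to 0.72). Adcy7, an adenylyl cyclase, differed by 0.57 (−0.09 to 1.23) and the red cell pyruvate kinase gene Pklr by −0.11 (−0.69 to 0.47). For Asb17, Kcnn4 and Pklr, and for Dmtn below, the direct intervals leave out a change of 2-fold in either direction. The run-referenced intervals do not: in the same order they were −0.79 to 1.23, −1.08 to 0.44, −1.16 to 0.36 and −1.37 to −0.04.

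Ermap and Dmtn depended on the reference. Ermap, an erythroblast membrane protein, was 8.19, 7.75 and 7.91 in KLF1-/- and 7.93, 8.42 and 7.98 in KLF1-/- KLF2-/-, a direct difference of 0.16. Its run-referenced difference was −1.34 (−2.21 to −0.47, adjusted p = 1.0). Wild-type arrays 1 to 4 lay between 8.84 and 9.96 and arrays 9 to 12 between 10.45 and 11.43, so the wild-type runs do not overlap while the mutants do. Dmtn, the actin-bundling protein dematin, had a direct difference of −0.04 (−0.69 to 0.61) and a run-referenced one of −0.70, with wild type at 7.04 to 7.22 and 7.40 to 8.19. The adult beta globin gene Hbb-b2 was 5.41, 4.87 and 5.18 in KLF1-/- and 5.26, 6.76 and 6.44 in KLF1-/- KLF2-/-. Its difference of 1.00 (−0.32 to 2.32) was not called, the second probe set gave 0.25, and near-identical globin copies make the value uncertain.

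**Figure D3:**
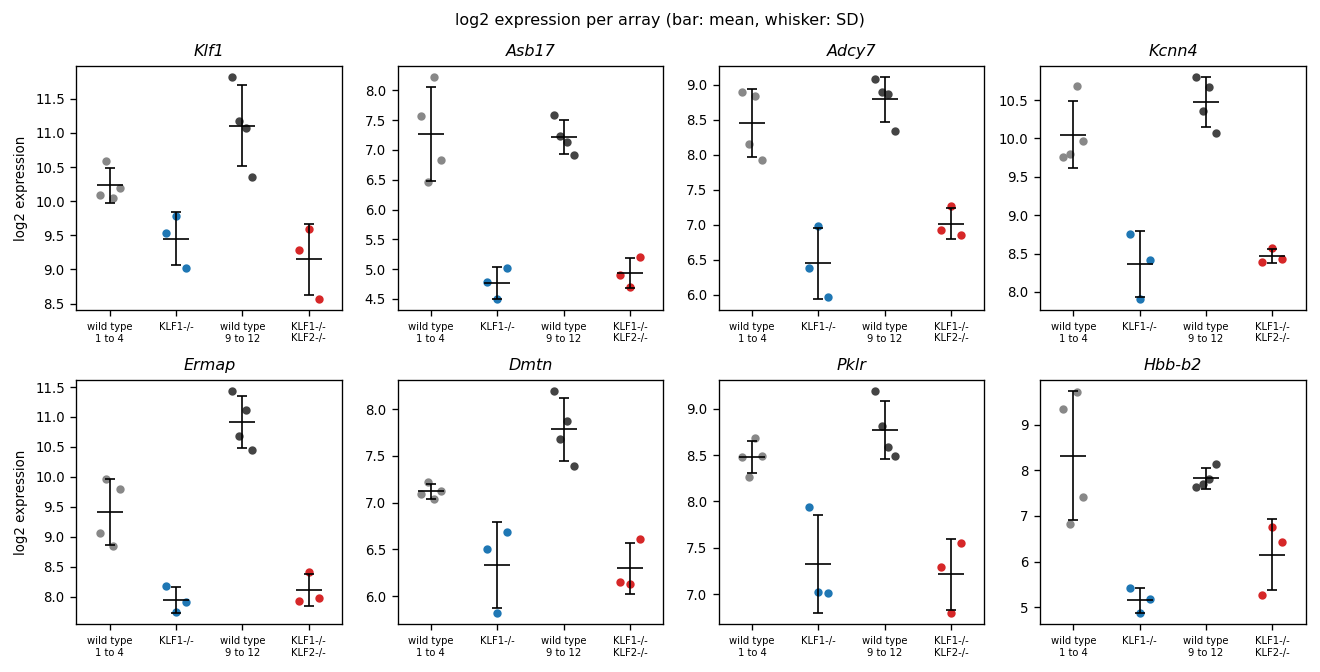
Log2 expression per array of Klf1 and 7 genes that were low without KLF1, by genotype and title run (points are arrays, bars are means, whiskers are SD; each panel has its own axis range). Asb17 averages 4.77 and 4.93 and Kcnn4 8.36 and 8.46 in the mutant groups, and Ermap differs between the wild-type runs more than between the mutants.

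The changes of the mutant genotypes from their own wild type share no array and can be set side by side. Across 12393 genes, which are not independent replicates, Pearson r was 0.208 and 51.7% had the same sign. Of 33 genes beyond 1 in either direction in KLF1-/-, 30 had the same sign in KLF1-/- KLF2-/- (90.9%), and of 53 beyond 1 in KLF1-/- KLF2-/-, 44 did in KLF1-/- (83.0%). The 19 genes beyond 1 in both had 1 sign each. The correlation moved with single arrays. It was −0.04 without KLF1-/- replicate 6, 0.03 without KLF1-/- KLF2-/- replicate 14, 0.0016 and 0.08 without wild-type replicates 4 and 12, and 0.34 without wild-type replicate 1. The 3 KLF1-/- calls became 5 without wild-type replicate 9 or 12, 1 without wild-type replicate 3 or KLF1-/- replicate 6, and 0 without wild-type replicate 1, 10 or 11, KLF1-/- replicate 5 or 8, or any KLF1-/- KLF2-/- array. The 7 KLF1-/- KLF2-/- calls became 11 without wild-type replicate 12, and 1 to 4 without any other wild-type array, KLF1-/- replicate 5 or any KLF1-/- KLF2-/- array.

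**Figure D4:**
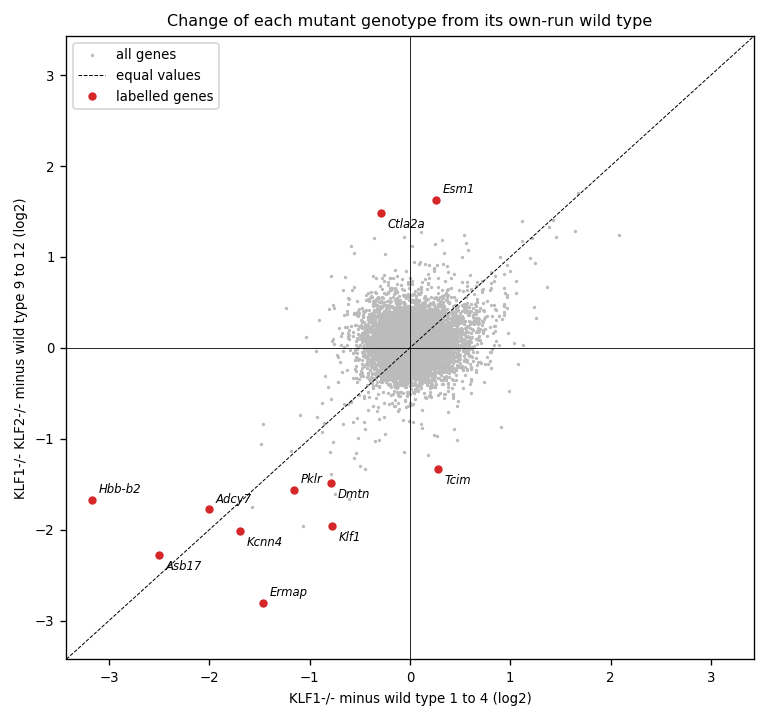
Change of KLF1-/- from wild-type arrays 1 to 4 (horizontal axis, log2) against change of KLF1-/- KLF2-/- from wild-type arrays 9 to 12 (vertical axis, log2), 1 point per gene. Asb17, Adcy7 and Kcnn4 are low on both axes, while Tcim (0.28 and −1.33) and Esm1 (0.26 and 1.63) are displaced mainly on the vertical axis.

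Gene lists were described by counts and medians, with all-gene medians of 0.0004 for the direct and 0.03 for the run-referenced difference. In all 21 lists 0 members were called in either difference. Over all 12393 genes 1 was called directly (0.00807%) and 0 run-referenced, so a count of 0 does not set a list apart. Known KLF2 targets of endothelium and lymphocytes were measured for 28 of 30 members, 10 of them above 0 in the direct difference, with a median of −0.08 (run-referenced −0.05). The anticoagulant receptor gene Thbd differed by −0.41, with arrays that do not overlap (lower in this way: 1.49% of all genes), and by −0.11 run-referenced. Arrays also did not overlap for the vasoconstrictor gene Edn1, lower (−0.13 and −0.07), and the adhesion molecule gene Sele, higher (0.17 and 0.21). The direct difference was −0.09 for the nitric oxide synthase gene Nos3 and −0.07 for the sphingosine phosphate receptor gene S1pr1. Procr, the protein C receptor, stood at 0.63 directly and 0.77 run-referenced. Among 17 of 21 Krüppel-like and Sp factors the median was 0.01, with Klf4 at 0.05, Klf6 at 0.40 and Klf10 at −0.59 (0.47 run-referenced). The embryonic beta-like globin gene Hbb-bh1, which lay near the ceiling of the arrays where differences are compressed, differed by 0.06, and Hbb-y by 0.08. The embryonic alpha-like globin gene Hba-x, lower on the scale at 12.68 and 12.87, differed by 0.19 (−0.65 to 1.03).

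Macrophage and myeloid markers stood highest among the lists in the direct difference. The median was 0.29 over 25 members, 21 lay above 0, and for 7 the KLF1-/- KLF2-/- arrays all exceeded the KLF1-/- arrays, against 1.76% of all genes. The list's mean log2 value was 6.63 to 6.68 in KLF1-/-, 6.92 to 6.97 in KLF1-/- KLF2-/- and 6.50 to 6.91 in wild type. The double mutants lay above every other array, but narrowly: the lowest stood at 6.9179 and the highest wild-type array at 6.9095. Fcer1g, a chain of immune receptors, differed by 0.40 directly and 0.27 run-referenced. The complement gene C1qb differed by 0.58 and 0.54 and the lysozyme gene Lyz1 by 0.67 and 0.18. Other members stood lower, such as Adgre1 at −0.04 and −0.08 and Cd68 at 0.09 and 0.16. The other complement genes, C1qa and C1qc, stood at 0.08 and 0.09 directly and 0.12 and 0.37 run-referenced. In limma 3 of 25 members had an unadjusted p under 0.05 directly and 0 run-referenced (all genes: 0.597% and 1.59%). The run-referenced median was 0.18, again with 21 above 0, and it lay between 0.13 and 0.24 with each array left out. Mesenchyme and mesothelium markers had 21 of 24 members above 0 in both differences, with medians of 0.14 and 0.23. The arrays of the mutant genotypes did not overlap for 1 of these markers (4.17%, against 3.25% of all genes), the matrix proteoglycan gene Dcn (0.60 and 0.27). Igfbp3, a growth factor binding protein, had the highest direct value of the list (0.92, run-referenced 0.90). Its arrays overlapped, with KLF1-/- replicate 6 at 7.86 above KLF1-/- KLF2-/- replicates 13 and 15 at 7.81 and 7.09. Platelet genes had 16 of 24 above 0 (median 0.07, run-referenced 0.10), and for 0 of them did the arrays of the mutant genotypes not overlap. Vwf stood at 0.76 (run-referenced 0.59) and Pf4 at 0.47 (0.27), but Itga2b at 0.04 (−0.16), Selp at −0.02 (0.08) and Cd9 at −0.31 (0.31). Endothelial markers had a median of 0.02 (run-referenced 0.13). The part of these cells in the values of Esm1, Fabp4 and Srgn was not tested.

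**Figure D5:**
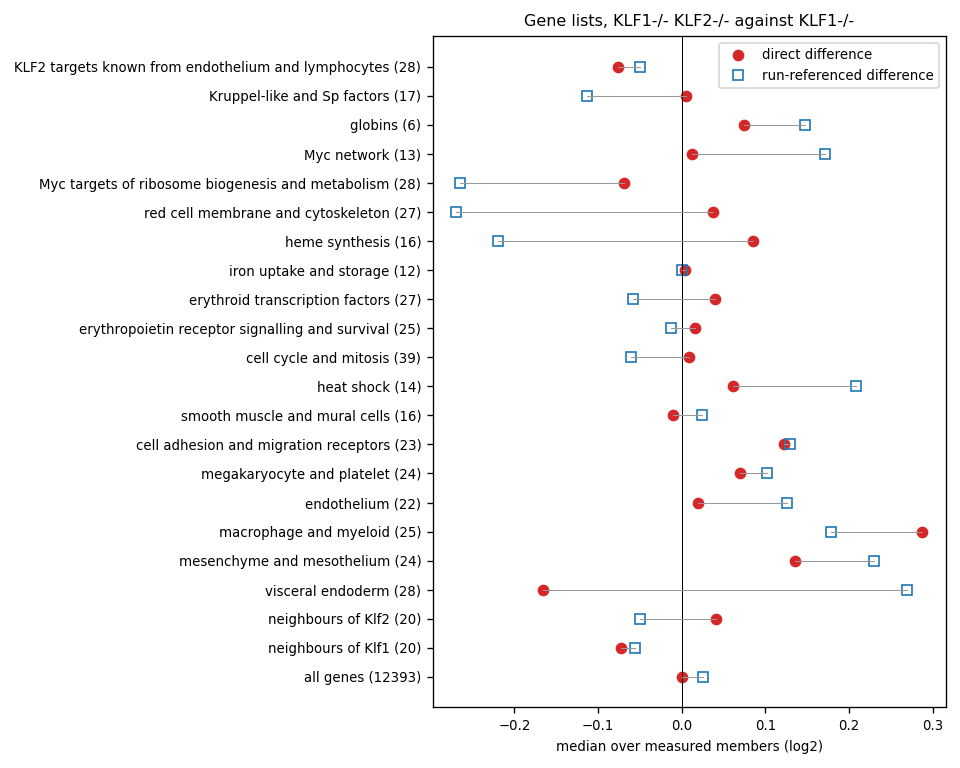
Median log2 difference between the mutant genotypes for each gene list (number of measured members in brackets), direct (filled circles) and run-referenced (open squares). Macrophage markers sit at 0.29 and 0.18, while visceral endoderm, heme and red cell membrane lists change sign between the measures.

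Several lists had medians of different sign in the direct and run-referenced differences. Visceral endoderm markers, genes of the cell layer next to the blood islands, had a direct median of −0.17 with 8 of 28 above 0. Their run-referenced median was 0.27, with 24 above 0. The wild-type arrays 9 to 12 lay below 1 to 4 by a median of 0.40 on this list. Apob, a lipoprotein gene, went from −0.23 to 1.68 and Apoa2 from −0.17 to 1.02. Red cell membrane genes went from 0.04 (16 of 27 above 0) to −0.27 (9 above 0), and heme synthesis genes from 0.09 (13 of 16) to −0.22 (5 of 16). On these lists wild-type arrays 9 to 12 lay above 1 to 4 by medians of 0.27 and 0.23. The direct sign of the heme list was not fixed: with an array left out its median ran from −0.13 (without KLF1-/- KLF2-/- replicate 14) to 0.31 (without replicate 15), and that of the red cell membrane list from 0.0002 to 0.15 (without the same arrays). The run-referenced medians stayed below 0 with each array left out, between −0.41 and −0.06 for heme and −0.38 and −0.09 for red cell membrane genes. Myc targets of ribosome biogenesis had medians of −0.07 and −0.27 over 28 members. With an array left out the direct one ran from −0.24 (without KLF1-/- KLF2-/- replicate 14) to 0.16 (without KLF1-/- replicate 6), and the run-referenced one from −0.35 to −0.06 (without the same arrays). Heat shock genes had medians of 0.06 and 0.21 over 14, with Hspa1a at 0.40 directly and 1.71 run-referenced. Cell cycle genes, 39 of 41 measured, had medians of 0.01 and −0.06, erythroid transcription factors 0.04 and −0.06 over 27, and iron genes 0.0035 and −0.0002 over 12. The direct cell cycle and iron medians ran from −0.18 to 0.25 and from −0.13 to 0.29, lowest without KLF1-/- KLF2-/- replicate 14 and highest without replicate 15. The Myc network, its partner and antagonist genes, had 0.01 and 0.17 over 13. Erythropoietin signalling and survival genes had 0.02 and −0.01 over 25, smooth muscle genes −0.01 and 0.02 over 16, and adhesion receptors 0.12 and 0.13 over 23.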

How the data were processed

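RNA of 14 samples, amplified by a 2-cycle protocol from 10 to 20 ng, was hybridised to 1 Affymetrix mouse array each, per the labels' protocols. The deposited table holds log2 values per probe set, made by the authors with GCOS, RMA, affy and limma, per the submitters' processing notes, with no versions or roles given. RMA compresses differences between weak signals. Of 22690 probe sets, 20380 were paired with 1 gene by the platform annotation, 691 with several, 1555 with none, and 64 were controls. Each of 12393 genes took its brightest probe set over all arrays, with no filter. The number of arrays, 3 against 3, limits precision.

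Groups came from titles. In limma 3.58.1 (R 4.3.3, statmod 1.5.0; lmFit, eBayes, two-sided), the direct difference was a contrast of 3 genotype means over all 14 arrays, and the run-referenced difference a contrast of 4 means, genotype by title run, equal to title run as a block. Wild-type arrays of the runs had 0 calls between them, but 101 without replicate 4. P-values were adjusted over all genes. Nothing in the labels says whether replicates share a litter, so p-values measure the spread between these samples.

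Named genes were Klf1, Klf2 and Myc; called genes; up to 8 per direction of those whose 2 differences go one way at an unadjusted p under 0.05 with arrays that do not overlap; list members with the smallest p or meeting those conditions; called genes against own-run wild type; and the 5 largest direct differences per direction. Xist, Pecam1, Cdh5, Kdr, Pf4, Slc4a1, Gata1, Hbb-bh1, Hba-x and further list members were picked with their values known. The members and lists were chosen with earlier results of these data known. Neighbours of Klf1 and Klf2 came from the gene order of RefSeq GRCm38.p6.

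The fits were tested on simulated data first, with noise drawn separately for each gene and no run effect. For added changes of −1 and 1, the direct fit called 64% and 62% of the changed genes and the run-referenced fit 24% and 40%. Of the unchanged genes the direct fit called 9 and the run-referenced fit 4. The spread of the noise came from the fit of 4 means. The direct shares therefore leave out the difference between wild-type runs, which the direct fit of the real arrays holds in its spread. Tables were made with pandas 2.3.3 under Python 3.11.15 and figures with matplotlib 3.10.9.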

Additional observations from a re-analysis of the deposited data

Results flagged for a closer look

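Among the 79 genes examined by name, 8 had a wild-type array whose gap to the nearest of the other 7, divided by the range of the 8, exceeded Dixon's 95% critical value. Chance flags about 1 in 20 such groups. Klf13 was highest in wild-type replicate 1 at 8.84 (log2), the next value being 8.45. Pf4 was lowest in wild-type replicate 4 at 10.43 (log2), the next value being 11.07. Ppox was highest in wild-type replicate 9 at 6.72 (log2), the next value being 6.39. Procr was lowest in wild-type replicate 10 at 8.09 (log2), the next value being 8.88. Slc11a2 was lowest in wild-type replicate 1 at 6.72 (log2), the next value being 7.52. Stom was lowest in wild-type replicate 3 at 7.53 (log2), the next value being 8.08. Vav1 was lowest in wild-type replicate 2 at 4.88 (log2), the next value being 5.07. Vwf was lowest in wild-type replicate 4 at 4.81 (log2), the next value being 5.43. The mutant groups hold 3 arrays each and were not examined in this way. A test of the difference between the changes of the mutant genotypes from their own wild type called 0 genes in limma (197 at an unadjusted p under 0.05).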

How the results depend on the processing

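The count of 1 gene in the direct difference, Tcim, was kept with the mean of all probe sets, a filter on dim genes, quantile normalization, a variance trend and array weights with a strong prior. It was 0 with the most variable probe set, the Gapdh covariate, the 6 mutant arrays alone and the 4-mean model (68, 95, 71 and 83 genes at an unadjusted p under 0.05 in limma). With each array left out it was 0 to 1. The run-referenced count stayed at 0 with each array left out and under every setting but default array weights. Those weights did not converge. In the model of genotype means they ran from 0.172 (title 6) to 58.7 (title 13), and for the 4-mean model they were estimated separately. They gave 6029 direct calls, 794 run-referenced calls, 16 and 2008 calls against own-run wild type in KLF1-/- and KLF1-/- KLF2-/-, 3 between wild-type runs and a correlation of −0.17. The 7 calls of KLF1-/- KLF2-/- against own-run wild type became 4 with the most variable probe set and 11 with quantile normalization, with a variance trend and with strong-prior weights. With an array left out they were 1 to 11, those of KLF1-/- 0 to 5, those between wild-type runs 0 to 101 and the correlation −0.0379 to 0.34. Quantile normalization gave 5 calls between wild-type runs. The cause of these shifts was not tested.

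Single genes turned sign as follows. With array weights, the direct Klf1 difference was 0.22 and the run-referenced one 0.41 for Eif2s3y, 0.28 for Igfbp1 and −0.49 for Laptm5. With the most variable probe set Cpe was −0.0450 directly and Slc7a6 0.0847 run-referenced. Run-referenced Laptm5 was −0.0065 with the mean of probe sets and, with an array left out, ran from −0.31 (without KLF1-/- replicate 5) to 0.4935. Of 357 list medians under other settings, 24 moved beyond the replicate spread, and 31 of 420 with an array left out. No paired analysis was possible because the groups share no replicate numbers. The strong prior, the wild-type arrays left out of the direct count, and all settings for own-run counts, list medians and several single-gene values were added after seeing the data.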

Other observations

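Across all 14 arrays, the KLF1-/- KLF2-/- arrays lay above the other 11 for 15 genes (0.121%) and below them for 10 (0.0807%). Higher genes not yet described include Btn1a1, a milk fat globule protein gene (direct difference 0.76, run-referenced 0.02), St6gal1, a sialyltransferase gene (0.78 and 0.05), and Col14a1, a fibril-associated collagen gene (0.79 and 0.48). Sash3, an adaptor gene of lymphocytes, stood at 0.50 and 0.33, and the transcription factor gene Jun at 0.37 and 0.29. Lower genes include Mdn1, which codes for a ribosome assembly ATPase (−0.66 and −0.64), Mphosph10, a nucleolar protein gene (−0.29 and −0.30), and the exosome subunit gene Exosc2 (−0.18 and −0.25). Pth1r (−0.48 and −0.37) was also lower, as were Chchd10 (−0.30 and 0.15) and Tlcd1 (−0.29 and 0.31), which changed sign in the run-referenced difference. None of these was called, and they were picked after their values were seen.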
